A study of Oryza sativa with 18 samples.

Results

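The Lhcb1 genes encode the most abundant chlorophyll a/b-binding proteins of the outer antenna of photosystem II. Here they are the 3 loci LOC_Os01g41710 (Lhcb1.1), LOC_Os01g52240 (Lhcb1.2) and LOC_Os09g17740 (Lhcb1.3), chosen by their identifiers out of 55986 loci in the deposited table. All 3 were found, all 3 passed the low-count filter with 20437 genes in all, and the table describes each of them as a chlorophyll A-B binding protein. The table places Lhcb1.1 on chromosome 1 from 23607348 to 23608583, Lhcb1.2 on chromosome 1 from 30030998 to 30032054 and Lhcb1.3 on chromosome 9 from 10845678 to 10847156, and no source used here names the rice build. The length that ties the count to the FPKM was 1236, 1057 and 1479 bases for Lhcb1.1, Lhcb1.2 and Lhcb1.3, the whole span of each locus.

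Rice (Oryza sativa) flag leaves, the last leaf below the panicle, were profiled by RNA sequencing while the grain filled. The samples were leaves of Ospho1;2-Ko1 (Ko1), a mutant of the phosphate exporter gene OsPHO1;2, of the overexpression line OsPHO1;2-OE (OE) and of the wild type (WT), each at 15DAF and 5DAF. DAF is read here as days after flowering. All plants grew in a paddy field, and 3 libraries per genotype and stage made 6 groups and 18 libraries. The labels give neither the kind of mutation in Ko1, nor the promoter of the OE transgene, nor the number of independent lines, so an effect of OsPHO1;2 and one of the individual line cannot be told apart.

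Lhcb1 proteins assemble with Lhcb2 and Lhcb3 into the trimers of light-harvesting complex II, which pass absorbed light to photosystem II and hold much of the chlorophyll of a leaf. Their genes lie in the nucleus, are transcribed in green tissue in the light under the GLK transcription factors and with a daily rhythm, and their transcripts fall as leaves senesce. The proteins enter the thylakoid membrane by way of the chloroplast signal recognition particle.

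Total counts were 13223554 to 18264909 per library. Levels are given as CPM, the count relative to the TMM-scaled library size. A gene was called, or said to rise or fall, where edgeR's quasi-likelihood test gave an adjusted p under 0.05 (Benjamini-Hochberg over all 20437 genes). The targeted transcript OsPHO1;2 read 6.07 to 6.14 CPM in Ko1 and 4.75 to 29.5 CPM in OE at 15DAF, against 1.78 to 3.25 CPM in WT, and 1.102 to 3.38 CPM in Ko1 and 5.91 to 9.74 CPM in OE at 5DAF, against 1.72 to 3.52 CPM in WT. By edgeR it was lower in Ko1 than in OE at 15DAF (−1.51, adjusted p = 0.0498) and at 5DAF (−1.76, adjusted p = 0.0316), and edgeR did not call it against WT in either line (adjusted p from 0.114 to 0.973). DESeq2 called OsPHO1;2 higher in OE than in WT at 15DAF, where the edgeR log2 fold change was 2.77 (edgeR adjusted p = 0.122). The library labelled WT 5DAF replicate 3 correlated better across genes with the Ko1 5DAF libraries (mean r = 0.960) than with its own group (0.936). The Lhcb1 differences of Ko1 and OE from WT at 5DAF are given with and without it, for Lhcb1.1 in Ko1 as a range over left-out libraries. The other 2 WT libraries of 5DAF had their highest mean r with OE 5DAF (0.968 and 0.956, against 0.950 and 0.947 within WT), and Ko1 5DAF replicate 1 had its highest with WT 5DAF (0.956, against 0.952 within Ko1). Ko1 15DAF replicate 2 was nearest to its own group but was the highest of the 18 libraries for Lhcb1.1 and Lhcb1.3. All 6 green-leaf markers were detected in every library, with a lowest value of 368 CPM. Of the 4 developing-grain markers none was at 0, and their summed level was 22.4 to 27.8 CPM in Ko1, 14.6 to 17.5 CPM in OE and 15.1 to 16.97 CPM in WT at 15DAF, and 21.8 to 32.8 CPM, 14.3 to 15.3 CPM and 15.5 to 22.1 CPM in the same order at 5DAF. The labels do not say that replicates were separate plants, so the p-values here cover the spread among libraries, and that spread may be technical.

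Lhcb1.1 and Lhcb1.3 were among the most abundant transcripts of the leaf, whereas Lhcb1.2 was a minor transcript whose level spanned more than the others. By FPKM, Lhcb1.1 ranked between 2 and 21 and Lhcb1.3 between 4 and 19 among all genes of a library. Lhcb1.2 ranked between 980 and 20039. The length behind this FPKM was the whole locus span for the Lhcb1 genes, so a rank across genes also depends on how long each locus is. Lhcb1.1 made up 30.3% to 66.5% of the summed Lhcb1 FPKM, Lhcb1.3 made up 32.1% to 69.7%, and Lhcb1.2 made up 0.00491% to 1.33%. The summed Lhcb1 FPKM was 27.5% to 61.5% of that of 15 antenna genes, namely the 3 Lhcb1 genes with 12 other Lhca and Lhcb genes. This share carries locus length too and is not a share of reads. In WT at 5DAF Lhcb2 averaged 2985 CPM and 812 FPKM, beside 5288 CPM and 4089 FPKM for Lhcb1.1. The 3 genes took 0.446% to 1.62% of all counts of a library.

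Lhcb1.1 was lower at 15DAF than in any library at 5DAF in OE and WT leaves, and in Ko1 leaves except for replicate 2. Its values at 15DAF were 3349, 7931 and 1585 CPM in Ko1, 1675, 1516 and 1880.0 CPM in OE, and 2375, 1737 and 2639 CPM in WT. At 5DAF they were 3818, 5073 and 4915 CPM in Ko1, 4508, 5850.2 and 4251 CPM in OE, and 5102, 5995 and 4766 CPM in WT. All 6 OE and WT libraries at 15DAF lay below all 9 libraries at 5DAF, while of the Ko1 libraries at 15DAF 2 lay below them and 1 above them. In order of group means Lhcb1.1 ran from WT, OE and Ko1 at 5DAF through Ko1 at 15DAF to WT and OE at 15DAF, and no neighbours in this order were free of overlap.

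Lhcb1.2 was the most variable copy and was nearly absent from OE and WT leaves at 15DAF. Its values at 15DAF were 7.86, 44.8 and 9.40 CPM in Ko1 (125, 605 and 155 counts), 0.715, 0.385 and 0.251 CPM in OE (12, 6 and 4 counts), and 0.926, 0.544 and 0.542 CPM in WT (13, 8 and 10 counts). At 5DAF they were 51.2, 86.7 and 64.4 CPM in Ko1, 20.9, 30.5 and 9.12 CPM in OE, and 24.0, 24.9 and 50.2 CPM in WT. The Ko1 libraries at 5DAF lay above all others, and the OE and WT libraries at 15DAF lay below all others. Between these extremes WT at 5DAF (33.1 ± 14.9 CPM), Ko1 at 15DAF (20.7 ± 20.9 CPM) and OE at 5DAF (20.2 ± 10.7 CPM, SD, n = 3 each) overlapped.

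Lhcb1.3 was the steadiest copy. Its values at 15DAF were 3659, 7833 and 2702 CPM in Ko1, 3778, 4181 and 4913 CPM in OE, and 4805, 3991 and 5074 CPM in WT. At 5DAF they were 2622, 2933 and 3297 CPM in Ko1, 4177, 4431 and 4404 CPM in OE, and 5603, 5669 and 2979 CPM in WT. Ko1 at 5DAF was the lowest group by mean (2951 ± 338 CPM, SD, n = 3), below every OE library of that stage. The library labelled WT 5DAF replicate 3 (2979 CPM) and Ko1 15DAF replicate 3 (2702 CPM) lay within its range. The means of the other 5 groups ran from 4291 to 4751 CPM and overlapped.

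**Figure D1:**
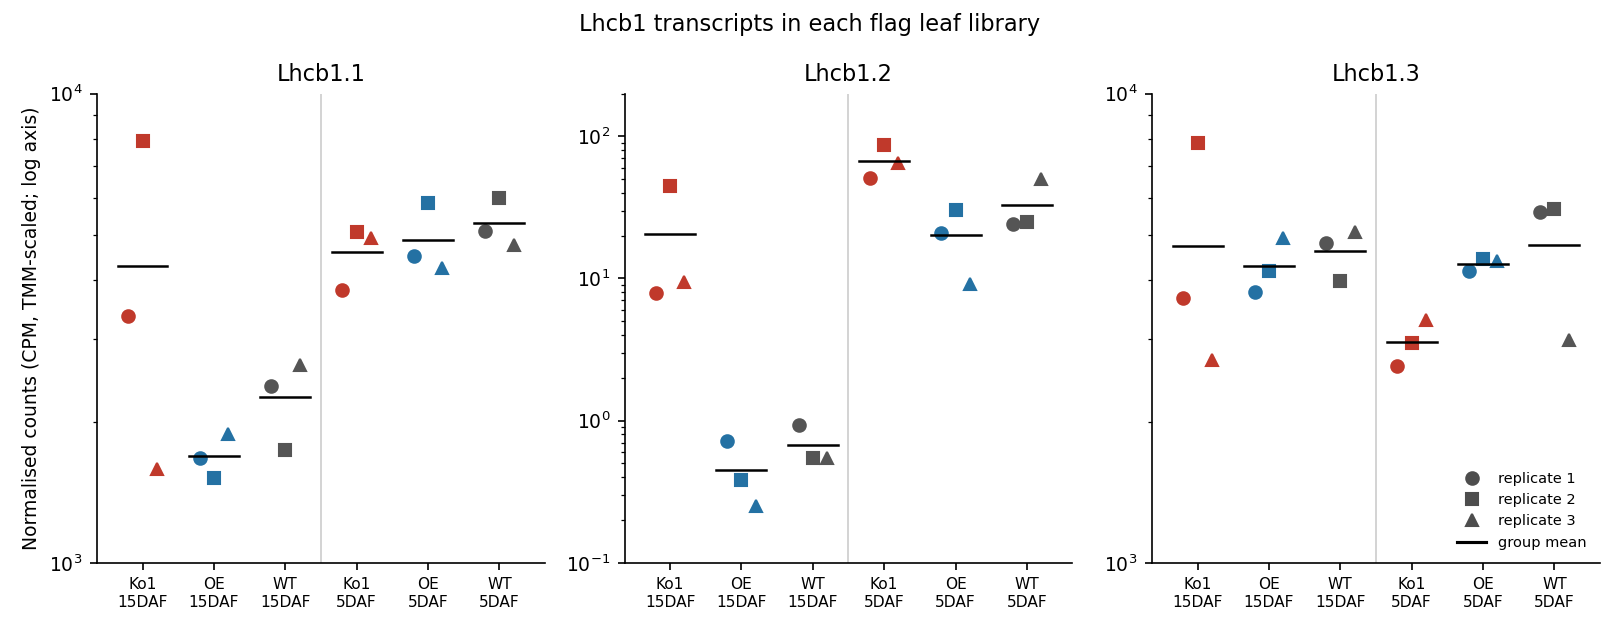
Normalised counts (CPM, log axis) of Lhcb1.1, Lhcb1.2 and Lhcb1.3 in each of the 18 libraries, with points for replicates and a bar for each group mean; colours mark Ko1, OE and WT. Lhcb1.2 lies at 0.251 to 0.926 CPM in the OE and WT libraries at 15DAF and at 7.86 CPM or above in every other library, and Ko1 15DAF replicate 2 stands above the rest for Lhcb1.1 and Lhcb1.3.

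Between the stages, Lhcb1.2 fell in all 3 genotypes, Lhcb1.1 fell in OE and WT, and Lhcb1.3 was called in none. This comparison asks how antenna transcripts differ between flag leaves at 5DAF and at 15DAF. Leaf age cannot be told apart from anything else that differed between these sets of leaves, such as the collection. Lhcb1.2 averaged 0.450 ± 0.239 CPM at 15DAF and 20.2 ± 10.7 CPM at 5DAF in OE, and 0.671 ± 0.221 CPM at 15DAF and 33.1 ± 14.9 CPM at 5DAF in WT (SD, n = 3 each), which is 44.8-fold lower in OE and 49.3-fold lower in WT at 15DAF. In Ko1 it averaged 20.7 ± 20.9 CPM at 15DAF and 67.4 ± 17.9 CPM at 5DAF, or 3.26-fold lower at 15DAF. The edgeR log2 fold change of Lhcb1.2 was −1.71 in Ko1 (SE 0.54, edgeR adjusted p = 0.0328), −5.45 in OE (SE 0.75, edgeR adjusted p = 4.25e-05) and −5.63 in WT (SE 0.72, edgeR adjusted p = 6.37e-05). The stages did not overlap in Ko1, OE or WT, as was so in that direction for 16.0%, 23.2% and 17.3% of all tested genes. Only 33 of 20437 genes in OE and 49 in WT had a lower log2 fold change, against 854 in Ko1. At 15DAF the OE and WT values of Lhcb1.2 rest on 4 to 12 and 8 to 13 counts a library. The sizes and ranks of these 2 falls are therefore imprecise.

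For Lhcb1.1 the log2 fold change of 15DAF over 5DAF was −1.53 in OE (SE 0.39, edgeR adjusted p = 0.00698) and −1.23 in WT (SE 0.38, edgeR adjusted p = 0.0348), with no overlap between the stages in either. In Ko1 the Lhcb1.1 difference was −0.10 (SE 0.38, edgeR adjusted p = 0.892). Lhcb1.3 differed by 0.68 in Ko1 (SE 0.32, edgeR adjusted p = 0.150), −0.016 in OE (edgeR adjusted p = 0.979) and −0.039 in WT (edgeR adjusted p = 0.953). So 1 of 3 Lhcb1 genes was called in Ko1, where 20.1% of all tested genes were called, 2 of 3 in OE, where 26.7% were, and 2 of 3 in WT, where 16.7% were.

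The Lhcb1.2 call in OE and WT held without each library in turn, and so did the Lhcb1.1 call in OE. The Lhcb1.1 call in WT was lost without WT 15DAF replicate 1, 2 or 3 (−1.30, −1.09 and −1.38, edgeR adjusted p = 0.0867, 0.146 and 0.0577) and without WT 5DAF replicate 1 or 2 (−1.27 and −1.13, edgeR adjusted p = 0.0601 and 0.0876), and held at −1.32 (edgeR adjusted p = 0.0425) when the third WT library of 5DAF was left out. In Ko1 the Lhcb1.2 call was lost without Ko1 15DAF replicate 1 or 3 (−1.32 and −1.36, edgeR adjusted p = 0.119 and 0.137) and without Ko1 5DAF replicate 2 or 3 (−1.48 and −1.75, edgeR adjusted p = 0.113 and 0.0555), while without Ko1 15DAF replicate 2 it was −2.96 (edgeR adjusted p = 0.000273). Without that library Lhcb1.1 was also called lower at 15DAF in Ko1 (−0.90, edgeR adjusted p = 0.0416), and without Ko1 15DAF replicate 3 Lhcb1.3 was called higher (0.96, edgeR adjusted p = 0.0447). In bulk leaf RNA, fewer cells of a type and less RNA per cell cannot be told apart. The summed level of the 6 green-leaf markers was also lower at 15DAF, at 4733 to 8789 CPM in Ko1, 5096 to 7231 CPM in OE and 7426 to 8566 CPM in WT, against 10189.6 to 15066 CPM in Ko1, 18653 to 22575 CPM in OE and 10529 to 18719.9 CPM in WT at 5DAF, and its part in the Lhcb1 differences was not tested. By edgeR 4 of the 6 markers were lower and 1 higher at 15DAF in Ko1, 5 were lower and 0 higher in OE, and 3 were lower and 0 higher in WT. The marker that rose in Ko1 was RCA, the activase of the carbon-fixing enzyme Rubisco (1.36, edgeR adjusted p = 0.0140), which was at −0.040 in OE (edgeR adjusted p = 0.952) and 0.35 in WT (edgeR adjusted p = 0.572).

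**Figure D2:**
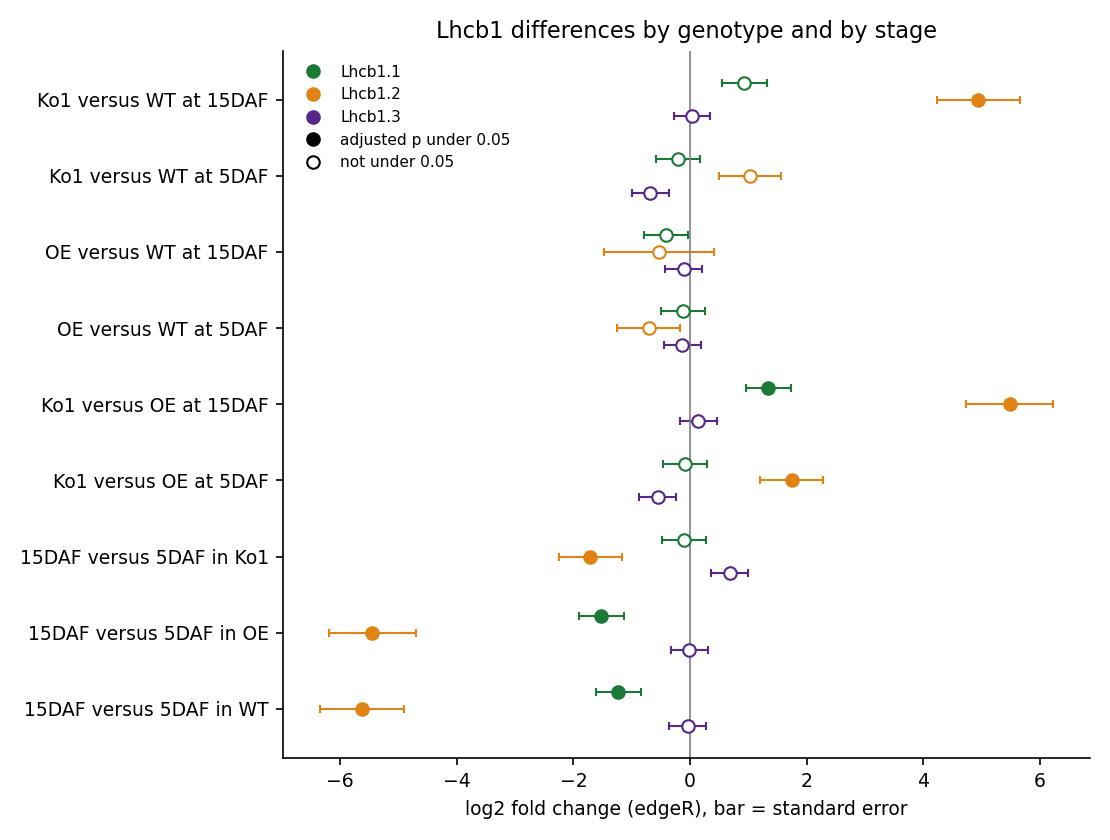
Log2 fold changes from edgeR (horizontal axis, bars are standard errors) of the 3 Lhcb1 genes in 9 comparisons, filled where the adjusted p was under 0.05. Lhcb1.2 lies far from 0 in Ko1 against WT (4.94) and against OE (5.48) at 15DAF and between the stages in OE (−5.45) and WT (−5.63), and Lhcb1.3 has no filled point.

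The other antenna genes were read as the setting for these differences, from a list of 14 genes for the remaining Lhcb and Lhca proteins and for PsbS, which governs the harmless release of excess light as heat. Of the 14, 4 were lower and 3 higher at 15DAF in Ko1, 10 were lower and 3 higher in OE, and 6 were lower and 3 higher in WT. The list's median log2 fold change was −0.43 in Ko1, −1.31 in OE and −0.80 in WT, beside 0.0020 in Ko1, 0.020 in OE and −0.023 in WT over all genes tested. The lower count in Ko1 was 2 without Ko1 15DAF replicate 1 and 1 without Ko1 15DAF replicate 3, Ko1 5DAF replicate 1 or Ko1 5DAF replicate 2. The genes that rose in each genotype were PsbS1, PsbS2 and Lhcb7, which encodes a rare and distantly related antenna protein. PsbS2 read 75.3, 196 and 164 CPM at 15DAF in Ko1, against 7.51, 4.57 and 6.68 CPM at 5DAF. Its log2 fold change was 4.54 in Ko1 (SE 0.49, edgeR adjusted p = 6.73e-06), 5.21 in OE and 4.42 in WT.

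Lhcb1.2 had a lower log2 fold change at 15DAF than each of the 14 in OE and WT, where the lowest of them was Lhca6, a minor photosystem I antenna gene (−2.73 in OE and −2.02 in WT). In Ko1 it stood beside Lhca6 (−1.71 for Lhcb1.2 and −1.72 for Lhca6). Lhcb6, a linker antenna protein of photosystem II, fell in each genotype (−1.16 in Ko1, −2.11 in OE and −1.95 in WT, edgeR adjusted p = 0.0411, 0.000707 and 0.00253). SGR, which starts chlorophyll breakdown, rose at 15DAF in each genotype (3.98 in Ko1, 5.87 in OE and 3.87 in WT). It was the gene called higher among 3 of antenna breakdown, and NOL, which begins chlorophyll b breakdown, fell in OE (−1.13, edgeR adjusted p = 0.00952). Of 15 genes of chlorophyll supply and antenna assembly 0 fell and 1 rose in Ko1 (CAO1, which makes chlorophyll b, 0.80), 10 fell in OE and 4 fell in WT. CHLM, PORB, CHLI and cpSRP43 fell in OE and WT, with cpSRP43 at −3.43 in OE and −2.71 in WT. Without the library labelled WT 5DAF replicate 3 the count in WT was 9. Without Ko1 15DAF replicate 2 the count in Ko1 was 4 lower and 0 higher, and it was 0 without Ko1 15DAF replicate 3 and 2 lower without Ko1 5DAF replicate 3. Of 7 circadian clock genes LHY, a morning-phased transcription factor, rose in Ko1 (1.79, edgeR adjusted p = 2.66e-05) and 0 were called in OE and WT. No list here was tested as a set, and differences between the genotypes in these counts were not tested.

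**Figure D3:**
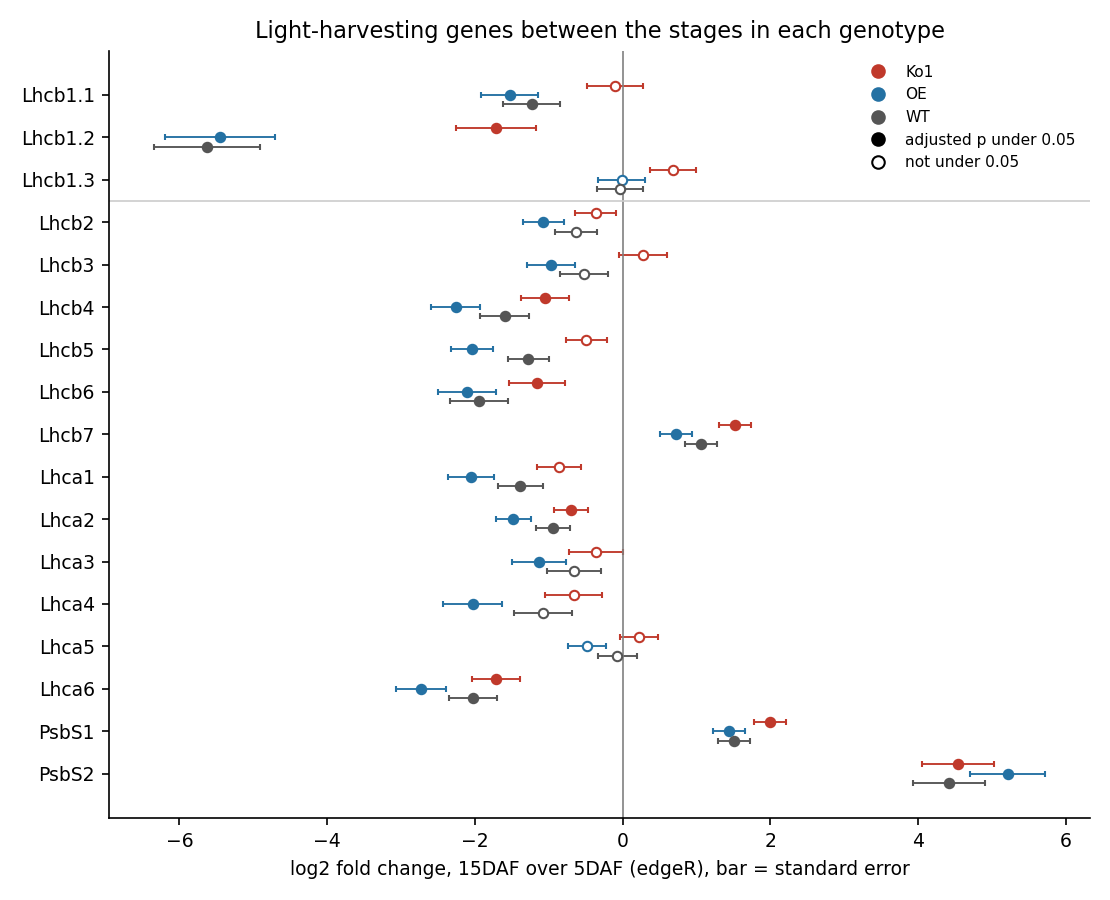
Log2 fold change of 15DAF over 5DAF (edgeR, bars are standard errors) for the 3 Lhcb1 genes, above the line, and 14 other antenna genes in Ko1, OE and WT, filled where the adjusted p was under 0.05. Lhcb1.2 lies left of the other genes in OE and WT, and PsbS1, PsbS2 and Lhcb7 lie right of 0 in each genotype.

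At 15DAF, Ko1 leaves held more Lhcb1.2 than WT leaves, while Lhcb1.1 and Lhcb1.3 were not called. The comparison asks how the leaf of the phosphate exporter mutant differs midway through grain filling. The mean level of Lhcb1.2 was 30.8-fold higher in Ko1, a log2 difference of 4.94 (SE 0.71, edgeR adjusted p = 0.000449), and every Ko1 library lay above every WT library, as was so for 18.7% of all tested genes. Among all genes, 70 of 20437 had a higher log2 fold change. The size of the Lhcb1.2 fold rests on 8 to 13 counts a library in WT and on Ko1 values from 7.86 to 44.8 CPM, highest in replicate 2. Lhcb1.1 differed by 0.93 (SE 0.38, edgeR adjusted p = 0.118) and Lhcb1.3 by 0.033 (SE 0.32, edgeR adjusted p = 0.958). This is 1 of 3 genes called, where 11.0% of all tested genes were called. The difference in Lhcb1.2 was known when the genes were chosen.

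Without each of the 6 libraries in turn the Lhcb1.2 difference stayed called, between 3.69 without Ko1 15DAF replicate 2 and 5.35 without Ko1 15DAF replicate 1. Lhcb1.1 rested on single libraries. It was 0.13 without Ko1 15DAF replicate 2 and 1.34 without Ko1 15DAF replicate 3, where it was called (edgeR adjusted p = 0.0145). The sum of the 4 grain markers was higher in each Ko1 library (22.4 to 27.8 CPM) than in each WT library (15.1 to 16.97 CPM), 1 of the 4 was called higher (BEIIb, 1.66, edgeR adjusted p = 0.00585), and its part was not tested.

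Of 14 other antenna genes 0 were called by edgeR in Ko1 against WT at 15DAF, 0 had an unadjusted p under 0.05 and DESeq2 called 0. Their median log2 fold change was −0.13, beside 0.010 over all genes. Among the 15 supply and assembly genes 3 rose in Ko1 and 0 fell, where 6.53% of all tested genes were called higher and 4.43% lower. The median log2 fold change of these 15 was −0.31, so the list as a whole did not lie higher in Ko1. By edgeR 7 of the 15 had an unadjusted p under 0.05. The 3 called higher were GLK2, a transcription factor that switches on antenna and chlorophyll genes, CHLM, a methyltransferase of chlorophyll synthesis, and DVR, a reductase of the same route. GLK2 read 38.9, 105.8 and 27.1 CPM in Ko1, against 21.2, 15.8 and 16.8 CPM in WT, a log2 difference of 1.67 (SE 0.41, edgeR adjusted p = 0.0166). CHLM read 11.6, 58.03 and 11.1 CPM in Ko1, against 10.5, 4.96 and 10.9 CPM in WT, with 1.60 (SE 0.47, edgeR adjusted p = 0.0384). DVR read 15.7, 38.9 and 21.8 CPM in Ko1, against 12.5, 7.55 and 11.4 CPM in WT, with 1.28 (SE 0.29, edgeR adjusted p = 0.0118).

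As for Lhcb1.1, the highest library of all 3 genes was Ko1 15DAF replicate 2. Without it GLK2 was at 0.88 (edgeR adjusted p = 0.0869), CHLM at 0.36 (edgeR adjusted p = 0.403) and DVR at 0.84 (edgeR adjusted p = 0.0497). The count of 3 fell to 2 without WT 15DAF replicate 1, to 0 without WT 15DAF replicate 2 and to 1 without WT 15DAF replicate 3. Among 7 circadian clock genes only PRR73, a pseudo-response regulator that represses morning genes, was called. It read 1095.0, 899 and 1049 CPM in Ko1 and 714, 762 and 534 CPM in OE, against 196, 242 and 162 CPM in WT (Ko1 against WT 2.34, SE 0.45, edgeR adjusted p = 0.00419). The hour of sampling is not given in the labels, and its part was not tested.

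At 5DAF, no Lhcb1 gene was called between Ko1 and WT, where 0.0147% of all tested genes were called. Lhcb1.2 averaged 67.4 ± 17.9 CPM in Ko1 and 33.1 ± 14.9 CPM in WT (SD, n = 3 each), a log2 difference of 1.03 (SE 0.53, edgeR adjusted p = 0.294). Its Ko1 values did not overlap with WT, as was so in the same direction for 7.10% of genes. Lhcb1.3 averaged 2951 ± 338 CPM in Ko1 and 4751 ± 1534 CPM in WT (−0.69, SE 0.32, edgeR adjusted p = 0.246). Lhcb1.1 differed by −0.20 (edgeR adjusted p = 0.801). It lay between −0.29 and −0.087 without each of the 6 libraries in turn, and was never called.

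The library labelled WT 5DAF replicate 3 had Lhcb1.2 and Lhcb1.3 values near those of Ko1. Without it the differences were 1.46 for Lhcb1.2 (edgeR adjusted p = 0.111) and −0.94 for Lhcb1.3 (edgeR adjusted p = 0.0564), neither of them called, while 2803 genes over all were called against 3 with it. With it, 0 of 14 other antenna genes were called by edgeR, 5 had an unadjusted p under 0.05 and DESeq2 called 1. Without it, 6 were called lower in Ko1, among them Lhca4 (−1.42, edgeR adjusted p = 0.0155) and Lhcb3 (−1.31, edgeR adjusted p = 0.0108), both antenna proteins of the photosystems. Of the 15 supply genes 0 were called with it (9 at an unadjusted p under 0.05, 4 by DESeq2) and 9 were lower without it. The largest of these was GLK1, the partner of GLK2, at 62.6, 48.4 and 34.5 CPM in Ko1, against 207, 198 and 62.7 CPM in WT.

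No Lhcb1 gene was called between OE and WT leaves at either stage. At 15DAF the log2 fold changes were −0.41 for Lhcb1.1, −0.53 for Lhcb1.2 and −0.11 for Lhcb1.3 (SE 0.38, 0.95 and 0.32, each with edgeR adjusted p = 1), where 0.0245% of genes were called. At 5DAF they were −0.12, −0.71 and −0.13 (SE 0.38, 0.53 and 0.32, edgeR adjusted p = 0.973, 0.840 and 0.962), where 0.0391% were called. Without the library labelled WT 5DAF replicate 3 they were −0.18 for Lhcb1.1, −0.28 for Lhcb1.2 and −0.37 for Lhcb1.3 (edgeR adjusted p = 1 each), and 38 genes over all were called against 8 with it. The Lhcb1.2 value moved with single libraries at both stages. It was −1.14 at 5DAF without OE 5DAF replicate 2 (edgeR adjusted p = 0.784), and at 15DAF it lay between −1.03 without OE 15DAF replicate 1 and −0.25 without WT 15DAF replicate 1 (edgeR adjusted p = 1 each). With 4 to 13 counts a library at 15DAF, the depth leaves Lhcb1.2 a wide error there. Of 14 other antenna genes 0 were called at each stage by edgeR and by DESeq2, and 0 had an unadjusted p under 0.05.

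The mutant Ko1 and the overexpression line OE differed in 2 of 3 Lhcb1 genes at 15DAF, where 13.3% of all tested genes were called. Lhcb1.2 was 45.9-fold higher in Ko1 in the group means, a log2 difference of 5.48 (SE 0.75, edgeR adjusted p = 0.000219) with no overlap, as was so in that direction for 18.4% of all tested genes. The call held without each library in turn, between 4.22 without Ko1 15DAF replicate 2 (edgeR adjusted p = 0.000235) and 5.99 without OE 15DAF replicate 1. Lhcb1.1 was higher by 1.34 (SE 0.38, edgeR adjusted p = 0.0297), although Ko1 15DAF replicate 3 (1585 CPM) lay within the OE values. That call was lost without Ko1 15DAF replicate 2 (0.54, edgeR adjusted p = 0.224) and without OE 15DAF replicate 1, 2 or 3 (1.35, 1.29 and 1.43, edgeR adjusted p = 0.0851, 0.103 and 0.0719). Lhcb1.3 differed by 0.14 (edgeR adjusted p = 0.804). Of the 14 other antenna genes edgeR and DESeq2 called 0, with 1 at an unadjusted p under 0.05, and edgeR called 2 higher without Ko1 15DAF replicate 3. GLK2, CHLM and DVR rose in Ko1 (1.62, 1.86 and 1.64), 3 of 15 supply genes, and 1 of 15 was called without Ko1 15DAF replicate 2 or without OE 15DAF replicate 1, 2 or 3. The supply list's median log2 fold change was −0.11, beside 0.012 over all genes.

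At 5DAF 1 of 3 was called between Ko1 and OE, where 16.3% of all tested genes were called. Lhcb1.2 was 3.34-fold higher in Ko1 (1.74, SE 0.54, edgeR adjusted p = 0.0391), with no overlap, as was so in that direction for 18.9% of all tested genes. The call was lost without Ko1 5DAF replicate 2 or 3 (1.51 and 1.78, edgeR adjusted p = 0.104 and 0.111) and without OE 5DAF replicate 1 or 3 (1.77 and 1.39, edgeR adjusted p = 0.0940 and 0.139). Lhcb1.3 was lower in every Ko1 library, as was so for 18.8% of all tested genes, and its difference of −0.56 was not called (edgeR adjusted p = 0.228), and Lhcb1.1 differed by −0.08 (edgeR adjusted p = 0.903). Beside the higher Lhcb1.2, 4 of 14 other antenna genes fell in Ko1 and 0 rose, namely Lhca4 (−1.38), Lhcb3 (−1.13), Lhcb5 (−0.91) and Lhca5 (−0.86). Of 15 supply genes 7 fell and 0 rose, GLK1 the most (−2.03), followed by CAO1 (−1.33), STN7, a kinase that phosphorylates the mobile antenna (−1.15), and CRD1, a chlorophyll synthesis enzyme (−1.15). The median log2 fold change was −0.72 for the antenna list and −0.93 for the supply list, beside 0.0082 over all genes. Without Ko1 5DAF replicate 3 neither list had a call and 46 genes were called in all, against 3340 with it. The antenna count was also 0 without Ko1 5DAF replicate 2, OE 5DAF replicate 1 or OE 5DAF replicate 3, and 1 without OE 5DAF replicate 2. The supply count was 4, 3, 2 and 5 without these 4 libraries, in that order. Ko1 against OE and Ko1 against WT share the Ko1 libraries.

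Whether the Ko1 effect itself changed between the stages was tested directly. For Lhcb1.2 the Ko1 effect was larger at 15DAF than at 5DAF by 3.91 on the log2 scale (SE 0.88, edgeR adjusted p = 0.0571), which missed the threshold in edgeR and passed it in DESeq2 (3.93, DESeq2 adjusted p = 0.00573). No Lhcb1 gene was called by edgeR, where 0.553% of all tested genes were called. The value was 1.13 for Lhcb1.1 (edgeR adjusted p = 0.597) and 0.72 for Lhcb1.3 (edgeR adjusted p = 0.785), and without Ko1 15DAF replicate 2 the values were 0.33 for Lhcb1.1, 2.66 for Lhcb1.2 and 0.15 for Lhcb1.3, none of them called. Without the library labelled WT 5DAF replicate 3 the value for Lhcb1.2 was 3.50 (edgeR adjusted p = 0.113), and without Ko1 15DAF replicate 1 or 3 it passed in edgeR too (4.33 and 4.29, edgeR adjusted p = 0.0246 and 0.0444). The change of the OE effect was 0.18 for Lhcb1.2, −0.29 for Lhcb1.1 and 0.024 for Lhcb1.3, none of them called. In that comparison edgeR called 0 genes, 1226 had an unadjusted p under 0.05 and DESeq2 called 12.

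The makeup of the Lhcb1 transcripts was compared within each library, as the log2 ratio of 2 members' FPKM with a pseudocount of 0.1. Library size cancels except through the pseudocount. It weighs most where Lhcb1.2 was lowest, at 0.257 to 0.697 FPKM in OE and 0.518 to 0.903 FPKM in WT at 15DAF. The ratios were tested by exact permutation within strata, on both sides and with Benjamini-Hochberg adjustment over 9 tests. They use the same libraries as the tests of single genes, so ratios with Lhcb1.2 carry its differences and are no separate support for them. At 15DAF the ratio of Lhcb1.2 to Lhcb1.1 was −8.49, −7.24 and −7.16 in Ko1, −10.8, −11.4 and −12.2 in OE, and −10.95, −11.2 and −11.8 in WT. At 5DAF it was −5.99, −5.64 and −6.03 in Ko1, −7.52, −7.35 and −8.62 in OE, and −7.50, −7.68 and −6.34 in WT. All Ko1 ratios lay above all OE and WT ratios of their stage.

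Within stages, the ratio of Lhcb1.2 to Lhcb1.1 was higher in Ko1 than in WT by 2.47 (exact permutation p = 0.005, the smallest of 400 arrangements, adjusted p = 0.009), with 3.66 at 15DAF and 1.28 at 5DAF. The ratio of Lhcb1.2 to Lhcb1.3 was higher in Ko1 by 3.07 (exact permutation p = 0.005, adjusted p = 0.009), with 4.42 at 15DAF and 1.71 at 5DAF, again with no overlap at either stage. The ratio of Lhcb1.3 to Lhcb1.1 was lower in Ko1 by 0.59 on the log2 scale (difference −0.59, exact permutation p = 0.015, adjusted p = 0.0225). At 15DAF its values were −0.13, −0.28 and 0.51 in Ko1, against 0.76, 0.94 and 0.68 in WT, and at 5DAF −0.80, −1.05 and −0.83 in Ko1, against −0.12, −0.34 and −0.94 in WT. Ko1 and WT did not overlap at 15DAF and overlapped at 5DAF through the library labelled WT 5DAF replicate 3. Without it the difference was −0.71 (adjusted p = 0.0075), and without WT 15DAF replicate 1, 2 or 3 the exact permutation test missed the threshold (−0.60, −0.56 and −0.62, adjusted p = 0.0525 each).

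Between stages, within genotypes, the ratio of Lhcb1.2 to Lhcb1.1 was lower at 15DAF by 3.16 on the log2 scale (difference −3.16), that of Lhcb1.2 to Lhcb1.3 differed by −4.39 and that of Lhcb1.3 to Lhcb1.1 by 1.23. Each had an exact permutation p of 0.00025, the smallest of 8000 arrangements, and an adjusted p of 0.00075. The 15DAF values lay on one side of the 5DAF values in each genotype for each ratio. So by FPKM Lhcb1.3 was the leading copy at 15DAF in OE and WT, with 67.9% ± 2.29 of Lhcb1 FPKM in OE and 63.4% ± 2.12 in WT (SD, n = 3 each). Lhcb1.1 led at 5DAF with 64.3% ± 1.95 in Ko1, 56.9% ± 3.79 in OE and 57.6% ± 6.79 in WT. These shares depend on the locus lengths of 1236 bases for Lhcb1.1 and 1479 bases for Lhcb1.3. In CPM at 5DAF, Lhcb1.1 and Lhcb1.3 averaged 4602 and 2951 in Ko1, 4870 and 4337 in OE, and 5288 and 4751 in WT. The 2 copies overlapped in OE and WT but not in Ko1. Ko1 leaves at 15DAF held about equal mean shares, 49.3% ± 7.18 of Lhcb1.1 and 50.4% ± 7.18 of Lhcb1.3. By library Lhcb1.1 made up 52.2%, 54.6% and 41.1% there, and Lhcb1.3 made up 47.7%, 45.1% and 58.6%. OE and WT differed by −0.40, −0.57 and 0.17 in the 3 ratios (Lhcb1.2 to Lhcb1.1, Lhcb1.2 to Lhcb1.3 and Lhcb1.3 to Lhcb1.1), with exact permutation p of 0.285, 0.265 and 0.275.

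**Figure D4:**
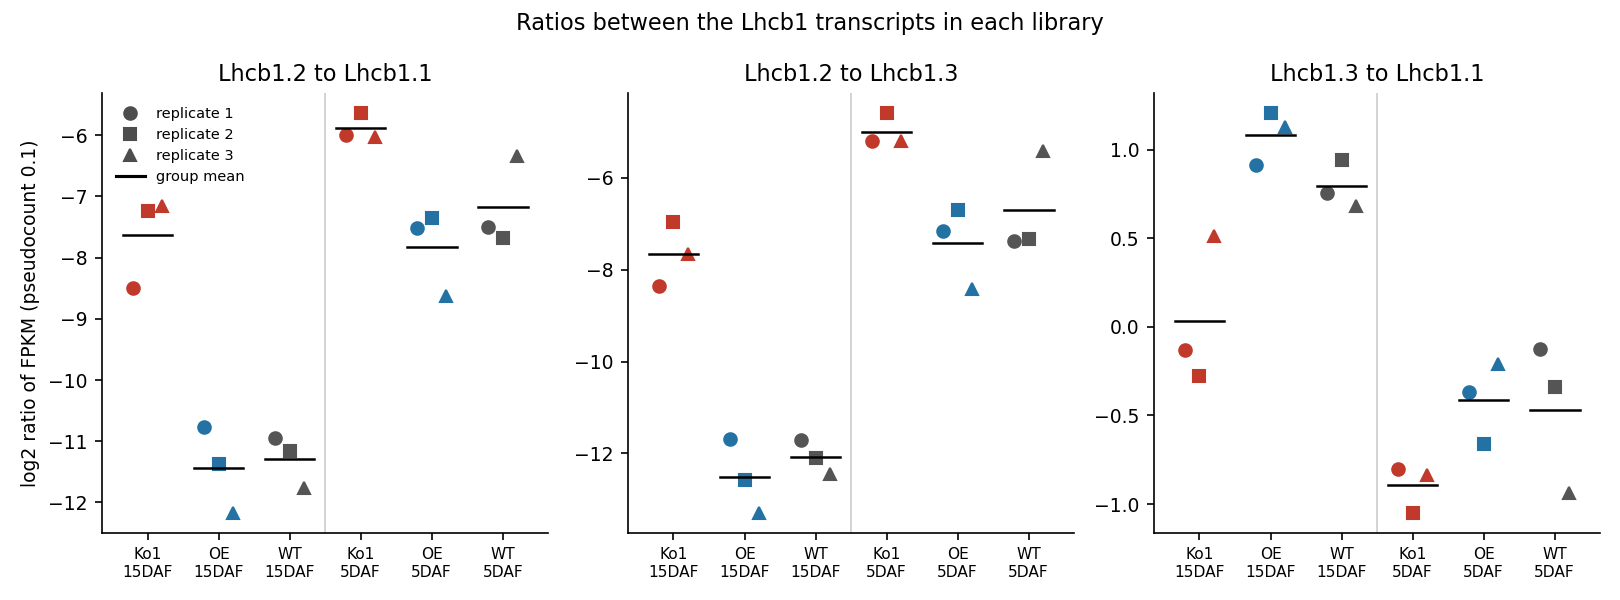
Log2 ratios of FPKM between pairs of Lhcb1 transcripts in each of the 18 libraries, with points for replicates and a bar for each group mean; colours mark Ko1, OE and WT. The Ko1 libraries lie above OE and WT in both ratios with Lhcb1.2 on top at 15DAF, where the means with Lhcb1.1 below are −7.63 in Ko1, −11.4 in OE and −11.3 in WT.

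Copies of a gene family can share reads, and how reads with several matches were counted is not given in the sources used here. In OE 15DAF replicate 3, where its share was lowest, Lhcb1.2 made up 0.00491% of the summed Lhcb1 FPKM and Lhcb1.3 made up 68.6%. Lhcb1.2 also lies within the longer locus LOC_Os01g52250, described as a starch synthase (chromosome 1 from 30030997 to 30041476), and strand use in the counting is not stated. That locus, looked at after the files were seen, had 72 to 263 counts a library and was not called in any comparison (Ko1 against WT at 15DAF 0.17, edgeR adjusted p = 0.735, and 15DAF against 5DAF in WT −0.37, edgeR adjusted p = 0.451).

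The genes most like each member were taken by Pearson correlation of log2 CPM over the 18 libraries, among 18319 genes with a mean of at least 1 CPM. The libraries form 6 groups of unlike stage and genotype, so these correlations carry the group differences and describe no more than a shared pattern. The 5 genes most like Lhcb1.1 were LOC_Os09g24820, described as a ZF-HD protein (r = 0.96), LOC_Os04g58200, protochlorophyllide reductase A (0.95), LOC_Os03g10620, a hydrolase (0.95), LOC_Os08g43440, a cytochrome P450 (0.94), and LOC_Os03g57240, a C2H2 zinc finger protein (0.94). Protochlorophyllide reductase makes the light-driven step of chlorophyll synthesis. It averaged 92.8 ± 92.1 CPM in Ko1, 23.04 ± 8.46 CPM in OE and 38.2 ± 10.6 CPM in WT at 15DAF, and 219 ± 43.8, 227 ± 31.1 and 245 ± 15.03 CPM in the same order at 5DAF (SD, n = 3 each). Its Ko1 values at 15DAF ran from 14.9 to 194 CPM, highest in replicate 2 as for Lhcb1.1.

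For Lhcb1.2 they were LOC_Os01g09620, a CCCH zinc finger protein (r = 0.97), LOC_Os02g53750, a tyrosine protein kinase (0.96), LOC_Os07g11110, an epimerase (0.96), LOC_Os01g57710, a membrane protein (0.96), and LOC_Os02g02000, a cytochrome P450 (0.95). All 5 were called higher in Ko1 than in WT at 15DAF and lower at 15DAF than at 5DAF in OE and WT. Likeness and tests rest on the same libraries. LOC_Os01g09620 averaged 7.31 ± 2.46 CPM in Ko1, 1.55 ± 0.191 CPM in OE and 2.03 ± 0.468 CPM in WT at 15DAF. Its log2 fold change in Ko1 against WT was 1.83, beside 4.94 for Lhcb1.2.

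For Lhcb1.3 the likeness was lower. The 5 genes were LOC_Os09g17760, described as an expressed protein (r = 0.86), LOC_Os04g56240, a lipase (0.84), LOC_Os02g36450, a transporter (0.83), LOC_Os11g38670, a DEAD-box protein (0.82), and LOC_Os03g17240, an ankyrin protein (0.81). The first of these lies 9366 bases from Lhcb1.3 on chromosome 9, from 10856523 to 10862761. It averaged 26.4 ± 7.56 CPM in Ko1, 28.6 ± 1.73 CPM in OE and 27.3 ± 1.04 CPM in WT at 15DAF, and 22.3 ± 1.69, 28.2 ± 0.862 and 26.4 ± 2.998 CPM in the same order at 5DAF (SD, n = 3 each). None of the 15 genes was named for more than 1 member.

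Within the fixed lists, CHLM had the highest r with Lhcb1.1 (0.93) and with Lhcb1.2 (0.91). GLK2 had r of 0.81 with Lhcb1.1, 0.79 with Lhcb1.2 and 0.19 with Lhcb1.3, whereas its partner GLK1 had 0.36, −0.006 and 0.64. The lowest r with Lhcb1.1 and with Lhcb1.2 was that of the clock gene PRR59 (−0.76 and −0.82). The assembly factor cpSRP43, a chloroplast signal recognition particle protein that carries Lhcb proteins to the membrane, had r = 0.86 with Lhcb1.1, 0.68 with Lhcb1.2 and 0.26 with Lhcb1.3. Lhcb3 had the highest r with Lhcb1.3 among the antenna genes (0.71). Between the members r was 0.84 for Lhcb1.1 and Lhcb1.2, 0.28 for Lhcb1.1 and Lhcb1.3 and −0.21 for Lhcb1.2 and Lhcb1.3 over the 18 libraries.

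**Figure D5:**
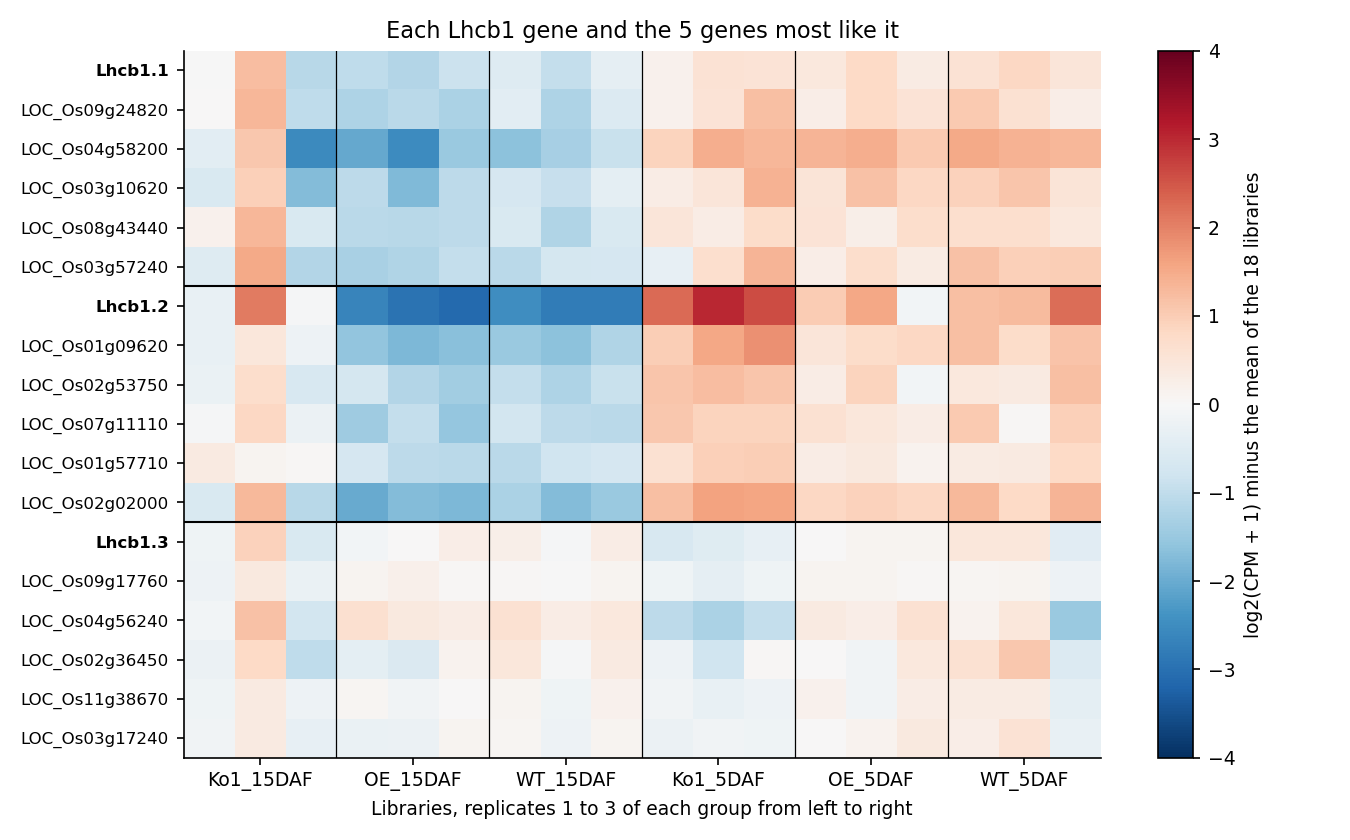
Heat map of log2(CPM + 1), centred on the mean of the 18 libraries, for each Lhcb1 gene (bold) and the 5 genes most like it (rows) in each library (columns, grouped as Ko1, OE and WT at 15DAF and then at 5DAF). Ko1 15DAF replicate 2 is above the mean in nearly all rows, and the rows of Lhcb1.2 are low in OE and WT at 15DAF and high in Ko1 at 5DAF (mean 67.4 CPM for Lhcb1.2).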

How the data were processed

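The deposited table gives raw counts and FPKM for each library, per the file headers. Over 14683 genes with more than 20 counts in every library, the length that links each gene's count to its FPKM differed between libraries by a factor of at most 1.00004. The aligner was Bowtie 0.12.2 and the named build mm8, a mouse genome, per the submitters' processing notes, whereas the loci are those of rice. No source used here names the rice build, the annotation, the counting tool or the use of strand. RNA came from the RNeasy Plant Mini Kit and went into Illumina libraries, per the labels' protocols.

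Of 55986 loci, 29055 had a count and 20437 passed edgeR's filterByExpr. Library sizes were scaled by TMM, and a quasi-likelihood fit of 6 group means over 18 libraries (edgeR 4.0.16, limma 3.58.1, R 4.3.3) gave 11 contrasts, adjusted by Benjamini-Hochberg over all genes at 0.05. A prior count of 2 entered the correlations. The fit was tested on simulated data. The alternatives were RLE size factors, DESeq2 1.42.0, no filter, only the groups compared, the replicate number as a block, 0.01 as the threshold and leaving out each library. For ratios they were pseudocounts of 1 and 0.01 and CPM. No 2 libraries of a group agreed within sampling noise (chi-square per degree of freedom at least 7.80 over 18 pairs). Intervals are not given, and precision at low counts is limited by counting error.

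The genes named are the 3 members, the 5 genes most like each, and, from each list, up to 4 called members of a comparison by size of change. The members and lists were chosen with earlier results of these data known. Counts of list members under the alternatives and the locus overlapping Lhcb1.2 were added after seeing the data. No sequences are printed.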

Additional observations from a re-analysis of the deposited data

How the results depend on the processing

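Of 602 alternatives for the Lhcb1 genes and their ratios, 544 kept direction and side of the threshold, 26 lost a call, 7 gained one and 25, most of them near 0, changed sign. The calls of Lhcb1.2 for Ko1 against WT and against OE at 15DAF and for the stages in OE and WT, and of Lhcb1.1 for the stages in OE, held under every alternative run. At an adjusted p under 0.01 the calls lost were Lhcb1.2 in Ko1 against OE at 5DAF (1.74), Lhcb1.1 in Ko1 against OE at 15DAF (1.34), Lhcb1.1 between stages in WT (−1.23) and Lhcb1.2 between stages in Ko1 (−1.71). With only the groups compared, edgeR lost Lhcb1.1 in Ko1 against OE at 15DAF (1.37, adjusted p = 0.113) and Lhcb1.2 between stages in Ko1 (−1.71, adjusted p = 0.117), and Lhcb1.2 in OE against WT at 15DAF did not pass the low-count filter. The change of the Ko1 effect of Lhcb1.2 passed with no filter (3.91, edgeR adjusted p = 0.0139) and by DESeq2 (3.93). With no filter Lhcb1.3 between stages in OE was 0.010. Of 45 pairs of libraries with the same replicate number, 5 correlated above 0.1 (range −0.205 to 0.251). The highest were Ko1 with WT at 5DAF for replicates 1 and 3 (0.251 and 0.245). Pairs of unlike number were not compared, so this check cannot show whether the numbers pair the samples. With the replicate block no Lhcb1 call changed, Lhcb1.3 in Ko1 against WT at 15DAF was −0.035 and its change of the OE effect was −0.0027.

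Leaving out 1 library at a time gave these ranges. Between stages in Ko1 they were −0.90 to 0.30 for Lhcb1.1, −2.96 to −1.32 for Lhcb1.2 and 0.11 to 0.96 for Lhcb1.3, in OE −0.12 to 0.047 for Lhcb1.3, and in WT −1.38 to −1.09 for Lhcb1.1 and −0.31 to 0.11 for Lhcb1.3. For Ko1 against WT at 15DAF they were 0.13 to 1.34 for Lhcb1.1 and −0.54 to 0.33 for Lhcb1.3. For Ko1 against OE they were 0.54 to 1.76 for Lhcb1.1 and −0.43 to 0.44 for Lhcb1.3 at 15DAF, and −0.17 to 0.068 for Lhcb1.1 and 1.39 to 2.16 for Lhcb1.2 at 5DAF. For Lhcb1.2 at 15DAF they were 3.69 to 5.35 for Ko1 against WT and 4.22 to 5.99 for Ko1 against OE. For OE against WT they were −0.57 to −0.29 for Lhcb1.1, −1.03 to −0.25 for Lhcb1.2 and −0.23 to −0.017 for Lhcb1.3 at 15DAF, and −0.27 to −0.018 for Lhcb1.1, −1.14 to −0.28 for Lhcb1.2 and −0.37 to 0.023 for Lhcb1.3 at 5DAF. The change of the Ko1 effect ran from 0.33 to 1.55 for Lhcb1.1, 2.66 to 4.33 for Lhcb1.2 and 0.15 to 1.03 for Lhcb1.3, and the change of the OE effect from −0.32 to 0.60 for Lhcb1.2 and −0.13 to 0.26 for Lhcb1.3. The ratio of Lhcb1.3 to Lhcb1.1 in Ko1 against WT ran from −0.71 to −0.51. Each left-out fit has fewer samples, and other causes of lost calls were not tested.

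Counts of genes called moved by over 1.5 times in most comparisons. For Ko1 against WT they were 3 at 5DAF (0 to 2803 without 1 library, 708 by DESeq2, 72 with no filter, 1 with the block) and 2240 at 15DAF (814 to 3079, 3433 by DESeq2, 619 at 0.01). For OE against WT they were 8 at 5DAF (4 to 60, 85 by DESeq2, 42 with no filter, 5 with only these groups, 4 at 0.01) and 5 at 15DAF (3 to 29, 23 by DESeq2, 26 with no filter, 52 with only these groups, 3 with the block and at 0.01). For Ko1 against OE they were 3340 at 5DAF (46 to 4334, 90 at 0.01) and 2724 at 15DAF (1222 to 3319, 876 at 0.01). Between stages they were 4102 in Ko1 (2725 to 4549, 2274 at 0.01, 2639 with only these groups), 5455 in OE (3943 to 5918, 3265 at 0.01) and 3418 in WT (1907 to 3114, 1681 at 0.01). For the change of the Ko1 effect they were 113 (35 to 142, 298 by DESeq2, 30 with only these groups, 26 at 0.01), and for that of the OE effect 0 (0 to 3, 12 by DESeq2). Of the 5 most like genes, 5, 4 and 5 were shared for Lhcb1.1, Lhcb1.2 and Lhcb1.3 with a prior count of 0.5, and 2 for each by Spearman correlation.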
